A study of Mus musculus with 113 samples.

Results

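The adherent monoculture was examined over the interval in which mouse ES cells left the naive pluripotent state. Its members are the 6 samples collected at 0, 2.5, 8.5, 35.5, 41.5 and 53.5 h, of 15 adherent samples and 113 samples in the whole series. The first 3 form the early window and the last 3 the later window. All samples are R1 mouse ES cells, without any genetic change named in the labels. The cells had 1 feeder-free passage meant to remove feeder cells, and were dissociated with TrypLE and plated in N2B27 medium on gelatin. By their labels the groups differ in the hours of neural induction alone. A time point is a single bulk RNA-seq library of 1 ES cell line, so the 3 time points of a window stand in for replicates, and a p-value measures the spread between these samples, which holds the course in time. An exact test of 3 against 3 cannot go below p = 0.1, whereas the moderated test of limma borrows spread across genes and can.

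Naive ES cells resemble the epiblast of the blastocyst and are held in that state by LIF acting through Stat3 and by a network of transcription factors around Nanog, Esrrb, Tbx3 and the Klf proteins. When LIF and serum factors are withdrawn, autocrine FGF signalling through ERK lets the cells enter a formative phase that resembles the epiblast soon after implantation. Formative cells keep Pou5f1 and Sox2, take up Otx2, Pou3f1, Fgf5 and the de novo DNA methyltransferases, and can then be directed to neural fate. N2B27 is a serum-free medium without LIF that permits neural induction.

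Of the 13738 genes in the adherent file, 11610 had FPKM (fragment counts scaled to transcript length and library size) above 1 in at least 3 of the 6 samples and were tested. The 2128 genes that were not tested include 7 of the neural list, such as Zfp521, which lay between 0.621 and 1.25 FPKM and was above 1 in the 41.5 and 53.5 h samples. Fgf5 was just inside the limit, above 1 in the 3 later samples alone. 98 tested genes passed through the 3 later samples alone and 186 through the 3 early samples alone. Among the genes that passed in that way, which had to differ, 47 rose and 117 fell.

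The libraries did not all behave alike, and transcript base composition marked them. The 2258 genes of lowest GC content (33.1 to 44.8%, longest GENCODE M1 transcript) lay at a median of -0.45 on the log2 scale from their 6-sample mean in the 41.5 h library and -0.23 in the 35.5 h library. The same genes lay at 0.38 in the 53.5 h library and 0.46 in the 20.5 h library. The 3 early libraries stayed between -0.07 and 0.20. Genes of the longest transcripts followed the same pair of libraries, with -0.24 at 41.5 h and 0.21 at 53.5 h. Of the calls described next, 15 rises and 69 falls came from the lowest-GC group, and 112 rises and 132 falls from the 2258 genes of highest GC content. When the GC trend of each library was removed, an alternative chosen after seeing the data, the genes called went from 907 to 1511 of the 11288 genes with a transcript, of which 769 rose and 742 fell. Depth is not stated in the files. Steps in the lowest FPKM values gave a rough depth relative to the 0 h library of 1.60 at 8.5 h, the deepest, and 0.745 at 53.5 h, the shallowest.

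**Figure D1:**
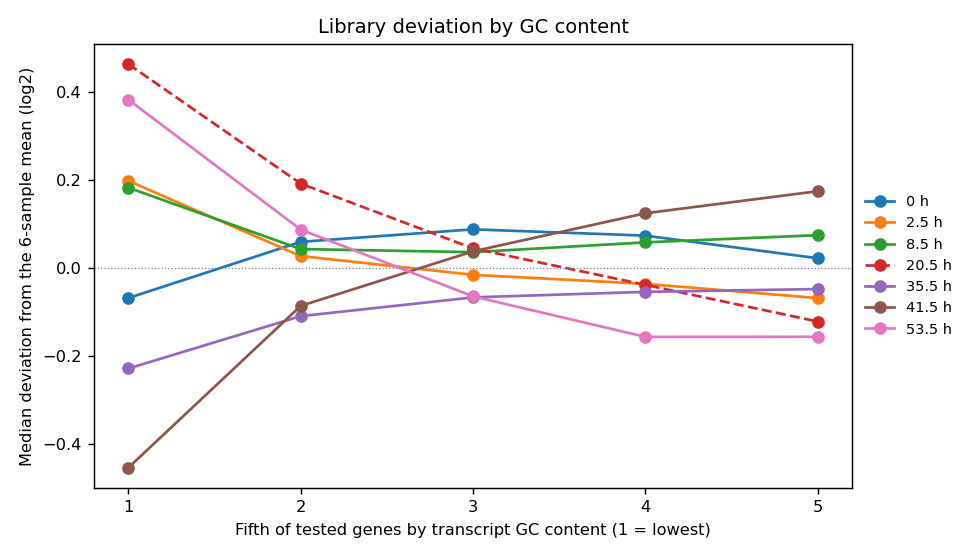
Median deviation of each library from the mean of the 6 window samples (log2 FPKM + 1, vertical axis) for tested genes grouped by the GC content of their longest transcript (horizontal axis, 1 lowest to 5 highest). Each line is 1 library and the dashed line is the 20.5 h sample. The 41.5 h library lies at -0.45 and the 53.5 h library at 0.38 in the lowest group, although both belong to the later window.

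Between the windows 873 genes passed the threshold (limma on log2(FPKM + 1), Benjamini-Hochberg adjusted p below 0.05), which is 7.52% of those tested. 322 genes rose (2.77%) and 551 fell (4.75%). The windows did not overlap for any of the 873 genes, as against 30.6% of all tested genes whose windows did not overlap. 155 of the rises and 323 of the falls were at least 1 on the log2 scale, and 22 and 47 were at least 2. The median of all tested genes was -0.10, and the split of rises and falls moved with the scaling. After scaling by median-of-ratios factors 480 rose and 431 fell, and after quantile normalization 544 rose and 333 fell. Single libraries mattered as well. The number called fell to 69 without the 2.5 h sample, 234 without 0 h, 496 without 8.5 h, 499 without 35.5 h and 573 without 41.5 h, and went up to 1633 without 53.5 h.

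Most genes of the naive transcription factor network, listed here with their associates Tcl1 and Dppa3, fell. Of 15 members 10 fell, none rose, and the median difference was -1.32 on the log2 scale, beside 4.75% of all genes that fell and a median of -0.10. Klf4, Klf5, Esrrb, Nanog, Tbx3, Tcfcp2l1 (Tfcp2l1), Zfp42, Prdm14, Nr5a2 and Tcl1 fell. The summed level of the 15 genes was 1082, 1093 and 1093 FPKM in the early window and 714, 686 and 410.2 FPKM in the later one. The number that fell depended on the samples and was 1 without 2.5 h, 2 without 0 h, 4 without 8.5 h, 6 without 41.5 h, and 1 when the 20.5 h sample joined the later window. It was 6 after quantile normalization.

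Tbx3, a T-box repressor that sustains self-renewal, had 11.6, 9.81 and 8.64 FPKM at 0, 2.5 and 8.5 h. It had 1.84, 1.74 and 1.23 FPKM at 35.5, 41.5 and 53.5 h. The highest later value was far below the lowest early value, and the difference was -2.08 ± 0.18 (SE, adjusted p = 0.00459). Tcl1, a coactivator of Akt, went from 54.3, 64.0 and 45.7 FPKM to 13.03, 7.94 and 4.16 FPKM, a difference of -2.67 ± 0.34 (adjusted p = 0.00715). The later samples were all below the early ones and were ordered by time. Tcfcp2l1, which binds many naive enhancers, went from 18.6, 17.4 and 16.8 FPKM to 6.86, 3.67 and 2.71 FPKM (difference -1.85 ± 0.27, adjusted p = 0.00992).

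Nanog, the homeodomain factor whose loss lets ES cells differentiate, had 163, 155 and 122 FPKM early and 75.8, 64.9 and 37.6 FPKM later. The windows were apart, and the difference was -1.34 ± 0.26 (adjusted p = 0.0236). Esrrb, an orphan nuclear receptor, had 104, 94.6 and 84.7 FPKM early and 50.4, 40.8 and 18.7 FPKM later (difference -1.45 ± 0.33, adjusted p = 0.0402). Zfp42 (Rex1), a zinc finger protein used as a reporter of the naive state, first stood higher within the early window. It had 298, 366 and 407 FPKM early and 189, 161 and 92.3 FPKM later, a difference of -1.32 ± 0.26 (adjusted p = 0.0263). Esrrb and Zfp42 kept their call in 2 of the 6 fits that left out 1 sample, Nanog in 4 and Tbx3 in 6.

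The 5 members that did not pass the test were unlike each other. Klf2, a Klf factor of the naive state, had 105, 93.1 and 112 FPKM early and 93.0, 124 and 55.3 FPKM later, so that the 35.5 h sample was level with the lowest early sample and the 53.5 h sample was below it (adjusted p = 0.629). Nr0b1 (Dax1) had 40.4 to 53.6 FPKM early and 33.4 to 39.0 FPKM later, without overlap, at a difference of -0.40 (adjusted p = 0.136). Dppa3 and Mybl2 overlapped between the windows. Gbx2, a homeobox gene downstream of Stat3, stood apart in direction, with 20.4, 8.93 and 19.3 FPKM early and 29.3, 52.0 and 42.0 FPKM later. Its difference of 1.33 ± 0.33 missed the threshold (adjusted p = 0.0538) and passed it with the GC trend removed (adjusted p = 0.0192).

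**Figure D2:**
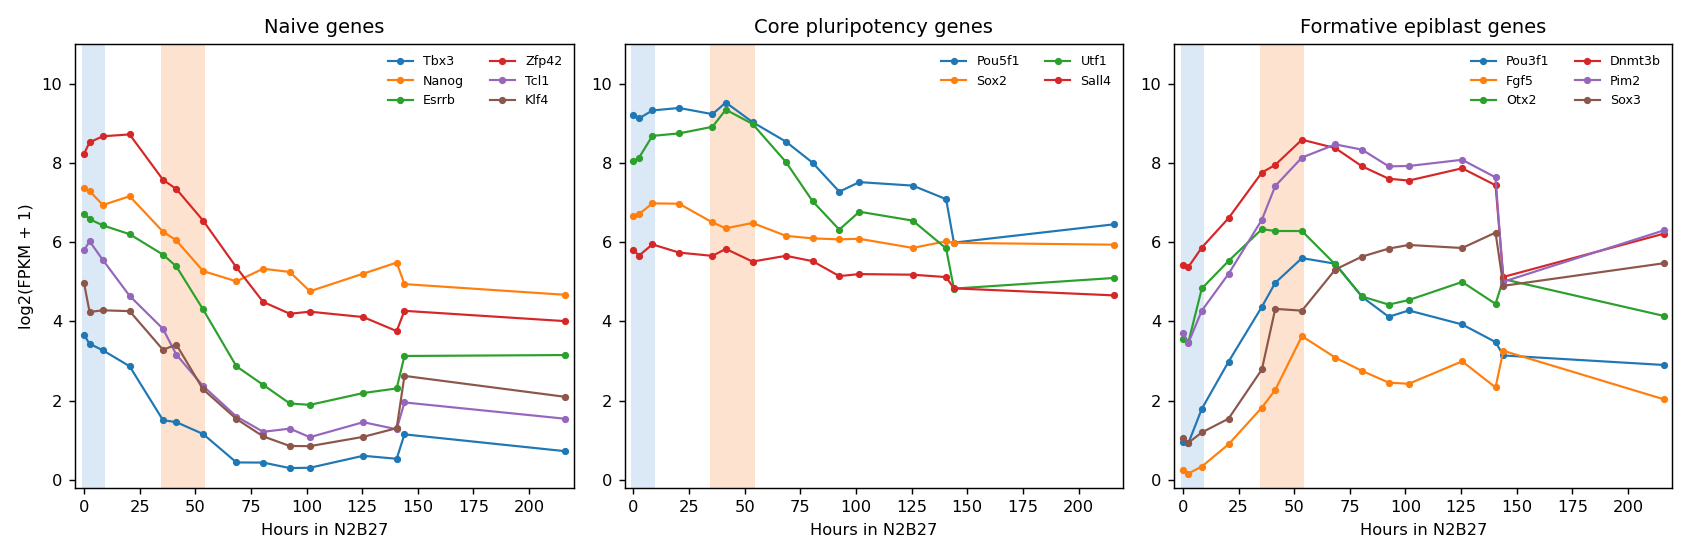
Expression of naive, core pluripotency and formative genes as log2(FPKM + 1) (vertical axes) against hours in N2B27 (horizontal axes) in the 15 adherent samples, 1 library per point. The blue band is the early window and the orange band the later window. The naive genes shown lie lower in the later window than in the early one, and the formative genes shown lie higher. Pou5f1 stays between 521 and 735 FPKM in both windows.

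The upstream sequences of Zfp42, Nanog and Pim2 are shown because these genes changed between the windows and their promoters hold letters associated with pluripotency factors. Zscan4d is shown as a fallen gene with the letters of an Esrrb site. Each run is the 250 bases before the RefSeq start on the gene's strand, build GRCm38.p6, and the capitals mark matches to 1 of 5 motifs searched on both strands, which were AAGGTCA (Esrrb), GGGTGTG (Klf), TTTGCAT (octamer core), CAGCAGG (Zic) and GGATTA (Otx).
Zfp42, chr8:43307010-43307259, minus strand, fell: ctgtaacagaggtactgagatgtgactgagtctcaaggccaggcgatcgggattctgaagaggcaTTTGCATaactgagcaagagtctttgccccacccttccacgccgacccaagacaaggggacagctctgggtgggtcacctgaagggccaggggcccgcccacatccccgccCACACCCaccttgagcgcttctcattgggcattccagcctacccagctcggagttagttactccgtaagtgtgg
Nanog, chr6:122707239-122707488, plus strand, fell: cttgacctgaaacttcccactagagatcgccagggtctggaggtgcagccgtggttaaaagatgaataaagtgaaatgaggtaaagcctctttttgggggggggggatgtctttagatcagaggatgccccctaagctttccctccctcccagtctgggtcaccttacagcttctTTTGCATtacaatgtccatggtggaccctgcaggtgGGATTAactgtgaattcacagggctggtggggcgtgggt
Pim2, chrX:7878056-7878305, plus strand, rose: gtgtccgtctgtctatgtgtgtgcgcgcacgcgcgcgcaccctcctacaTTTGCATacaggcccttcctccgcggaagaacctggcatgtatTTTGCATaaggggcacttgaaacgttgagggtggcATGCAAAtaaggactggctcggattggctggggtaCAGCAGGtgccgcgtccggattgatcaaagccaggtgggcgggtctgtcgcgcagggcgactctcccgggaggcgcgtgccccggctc
Zscan4d, chr7:11166149-11166398, minus strand, fell: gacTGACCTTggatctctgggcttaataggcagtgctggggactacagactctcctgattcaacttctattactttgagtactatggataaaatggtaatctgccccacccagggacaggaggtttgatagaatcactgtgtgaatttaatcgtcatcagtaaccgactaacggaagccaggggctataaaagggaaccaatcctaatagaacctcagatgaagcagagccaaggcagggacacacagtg
The octamer core, the letters read by Pou5f1 and its relatives, occurs once in the Zfp42 run, once in the Nanog run and 3 times in the Pim2 run, of which 1 is on the opposite strand. The Zfp42 run also holds the Klf letters and the Nanog run the Otx letters. No match says only that these letters are not in the window, and a match is not a bound site.

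Over the 8260 tested genes with a RefSeq promoter window (250 bases before to 50 after the start, 10609 windows), AAGGTCA lay in 3.29% of all windows, 2.26% of the windows of genes that rose and 7.69% of those that fell. CAGCAGG lay in 10.3% of all windows, 9.35% of risen and 15.4% of fallen ones. GGGTGTG lay in 8.35, 10.0 and 10.2%, TTTGCAT in 3.40, 4.52 and 3.74%, and GGATTA in 5.37, 5.81 and 6.44% of the same 3 sets. These shares are descriptions, and paralogous windows such as those of Zscan4c, Zscan4d and Zscan4f, which each hold AAGGTCA, are counted one by one.

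Other naive-state genes changed in part. Of the 14 surface and metabolic genes of the naive state 4 fell and none rose, with a median of -0.25, beside 4.75% of all tested genes that fell and their median of -0.10. Spp1, a secreted integrin ligand, had 184, 215 and 149 FPKM early and 42.3, 35.6 and 24.9 FPKM later, a difference of -2.40 ± 0.22 (adjusted p = 0.00507). Jam2, a junctional adhesion molecule, went from 18.96, 20.2 and 13.2 to 4.36, 2.99 and 2.64 FPKM (difference -2.09 ± 0.22, adjusted p = 0.00525). Both kept the call in all 6 fits that left out 1 sample. Pecam1 and Fbxo15 fell by 1.25 and 1.18 on the log2 scale, and Fbxo15 lost its call with the GC trend removed (adjusted p = 0.0634). Tdh, the mitochondrial threonine dehydrogenase of mouse ES cells, had 207 to 230 FPKM early and 136 to 180 FPKM later without overlap and missed the threshold (adjusted p = 0.063). The falls numbered 2 without the 0, 2.5 or 8.5 h sample and 0 with 20.5 h added to the later window.

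Of 12 members of the LIF and Stat3 pathway 4 fell and none rose, with a median of -0.47 (all genes 4.75% fallen, median -0.10). Those that fell were Bcl3, Socs3, Stat3 and Osmr, while the targets Pim1, Pim3 and Cish were not called. Bcl3, an IkB family protein induced by Stat3, had 42.4, 24.3 and 23.1 FPKM early and 3.93, 4.19 and 1.52 FPKM later. Its difference of -2.89 ± 0.34 (adjusted p = 0.00645) was among the 10 largest falls of all genes. Stat3 itself went from 29.0, 19.8 and 20.7 to 10.996, 10.3 and 5.18 FPKM (difference -1.34 ± 0.28, adjusted p = 0.0313). Osmr, a receptor chain for oncostatin M, went from 2.76, 1.91 and 2.03 to 0.768, 0.557 and 0.360 FPKM and is 1 of the genes that passed the level limit through the early window alone (adjusted p = 0.0144). Socs3, the feedback inhibitor of the pathway, was high at 0 h alone, with 40.0 FPKM against 9.56 and 10.8 at 2.5 and 8.5 h and 2.70, 4.50 and 1.84 later. Its adjusted p was 0.0493, and the call was lost in each of the 6 fits that left out a sample. The LIF receptor chains Lifr and Il6st each had a difference of -0.47 and did not pass. The list count was 1 without 0 h, 1 without 2.5 h and 2 without 8.5, 35.5 or 41.5 h.

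The core pluripotency genes gave 1 rise and no fall among 10 members, beside 7.52% of all genes called, with a median of -0.22. None was called without the 0 or 2.5 h sample. Without 53.5 h 2 rose and 1 fell, where 493 of all 11610 genes rose and 1140 fell. Pou5f1 (Oct4) had 594, 556 and 639 FPKM early and 599, 735 and 521 FPKM later. The windows overlapped, and the difference was 0.04 ± 0.15 (adjusted p = 0.901). Its sign turned after quantile normalization (-0.02) and without the 2.5 or 41.5 h sample. Sox2 had 99.3, 103 and 125 FPKM early and 89.3, 80.5 and 88.5 FPKM later, without overlap, at -0.33 ± 0.12 (adjusted p = 0.158). Foxd3, a forkhead factor of the epiblast, was the member that rose, from 4.67, 3.39 and 7.51 to 15.1, 16.2 and 16.4 FPKM (difference 1.50 ± 0.24, adjusted p = 0.0135). Utf1, a chromatin protein of pluripotent cells, had 262, 279 and 409 FPKM early and 480, 648 and 505 FPKM later, and missed the threshold (adjusted p = 0.0564), which it passed with the GC trend removed (adjusted p = 0.0204). Zfp281 and L1td1 were lowest in the 41.5 h sample, at 4.36 and 53.3 FPKM, against 9.63 and 84.2 FPKM at 35.5 h and 24.8 and 134 FPKM at 53.5 h. Neither was called, and their transcripts have 43.1 and 47.8% GC. With the GC trend removed their differences went from -0.53 and -0.73 to -0.37 and -0.66. A part of base composition in the low 41.5 h values was not tested.

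The formative epiblast genes rose nearly as a list. 11 of 14 members rose and none fell, with a median difference of 2.31, beside 2.77% of all genes that rose. Of the 11, Fgf5 passed the level limit through the later window alone, so it had to differ. With FPKM above 1 in all 6 samples 8 of 11 members rose, where 218 of 10191 genes rose. The summed level went from 182, 172 and 261 FPKM in the early window to 662, 827 and 1162 FPKM in the later one. The members that were not called, Zic5, Grhl2 and Tead2, had differences of 1.06, 1.23 and 0.19. Zic5 and Grhl2 did not overlap between windows and passed with the GC trend removed (adjusted p = 0.0429 and 0.0356). The count was 4 without the 2.5 h sample, 10 without 0 h, 11 or 12 without each of the others, and 7 with 20.5 h added to the later window.

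Pou3f1 (Oct6), a POU factor of the post-implantation epiblast, had the largest rise of all called genes on the log2(FPKM + 1) scale. It had 0.925, 0.908 and 2.47 FPKM early and 19.6, 30.4 and 47.4 FPKM later, 22.7-fold on the window means, with a difference of 3.76 ± 0.36 (adjusted p = 0.00507). Every later value was over 7 times the highest early one. Pim2, a serine/threonine kinase, had 12.2, 10.0 and 18.3 FPKM early and 93.6, 170 and 280 FPKM later (difference 3.55 ± 0.39, adjusted p = 0.00525). Pim2 kept rising within the later window. Otx2, the homeobox factor of the formative epiblast and anterior neural plate, had 10.7, 10.2 and 27.5 FPKM early and 79.3, 76.7 and 76.7 FPKM later (difference 2.34 ± 0.34, adjusted p = 0.0097). The later samples of Otx2 were almost level, and its 8.5 h sample already stood above 0 and 2.5 h.

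Fgf5, the growth factor that marks the post-implantation epiblast, had 0.178, 0.118 and 0.263 FPKM early and 2.54, 3.82 and 11.4 FPKM later. The ratio of the window means was 31.7, and the difference of 2.33 ± 0.42 (adjusted p = 0.0186) understates it because 1 was added before the log. Sox3, a SoxB1 factor of early neural tissue, had 1.06, 0.918 and 1.29 FPKM early and 5.90, 18.9 and 18.3 FPKM later (difference 2.73 ± 0.40, adjusted p = 0.00979). The 35.5 h sample of Sox3 was well below the other later samples. Sall2, a zinc finger factor, went from 3.98, 3.61 and 6.92 to 19.7, 25.6 and 49.7 FPKM (difference 2.42 ± 0.35, adjusted p = 0.00995). Zic2, a zinc finger factor that acts with Otx2 in the epiblast, went from 10.3, 11.2 and 14.3 to 30.3, 43.5 and 49.1 FPKM (difference 1.69 ± 0.21, adjusted p = 0.00693). Fgf15, an FGF of early neural tissue, went from 1.54, 1.53 and 1.89 to 6.67, 6.72 and 8.72 FPKM (difference 1.65 ± 0.17, adjusted p = 0.00507) and kept its call in all 6 fits that left out a sample.

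Among the DNA methylation enzymes the 2 catalytic de novo methyltransferases rose and none of the other 6 was called, where 2.77% of all genes rose. Dnmt3b had 42.0, 40.5 and 57.2 FPKM early and 215, 246 and 383 FPKM later, a difference of 2.54 ± 0.23 (adjusted p = 0.00507). Dnmt3a had 36.0, 33.3 and 55.0 FPKM early and 106, 99.0 and 122 FPKM later (difference 1.41 ± 0.20, adjusted p = 0.00919). Without the 2.5 h sample 1 of them was called. Both were apart between windows, and at 8.5 h both already stood above 0 and 2.5 h. Dnmt3l, their cofactor without catalytic activity, overlapped between windows with 74.6 to 101 FPKM early and 61.1 to 123 FPKM later, and its difference of 0.02 turned sign under several alternatives. The maintenance enzyme Dnmt1 (69.1 to 84.6 FPKM over the 6 samples) and its partner Uhrf1 (154 to 208 FPKM) were at adjusted p = 0.722 and 0.665. The dioxygenase genes Tet1 and Tet2 were lowest at 41.5 h, at 4.82 and 1.16 FPKM, against 27.3 and 9.04 FPKM at 53.5 h, and were not called. Their transcripts have 43.7 and 45.4% GC. In the 41.5 h library the fifth of genes that holds Tet1 lay at a median of -0.45, and the fifth that holds Tet2 at -0.09. With the GC trend removed the differences of Tet1 and Tet2 went from -0.91 and -1.04 to -0.77 and -0.94. A part of base composition in the low 41.5 h values was not tested.

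**Figure D3:**
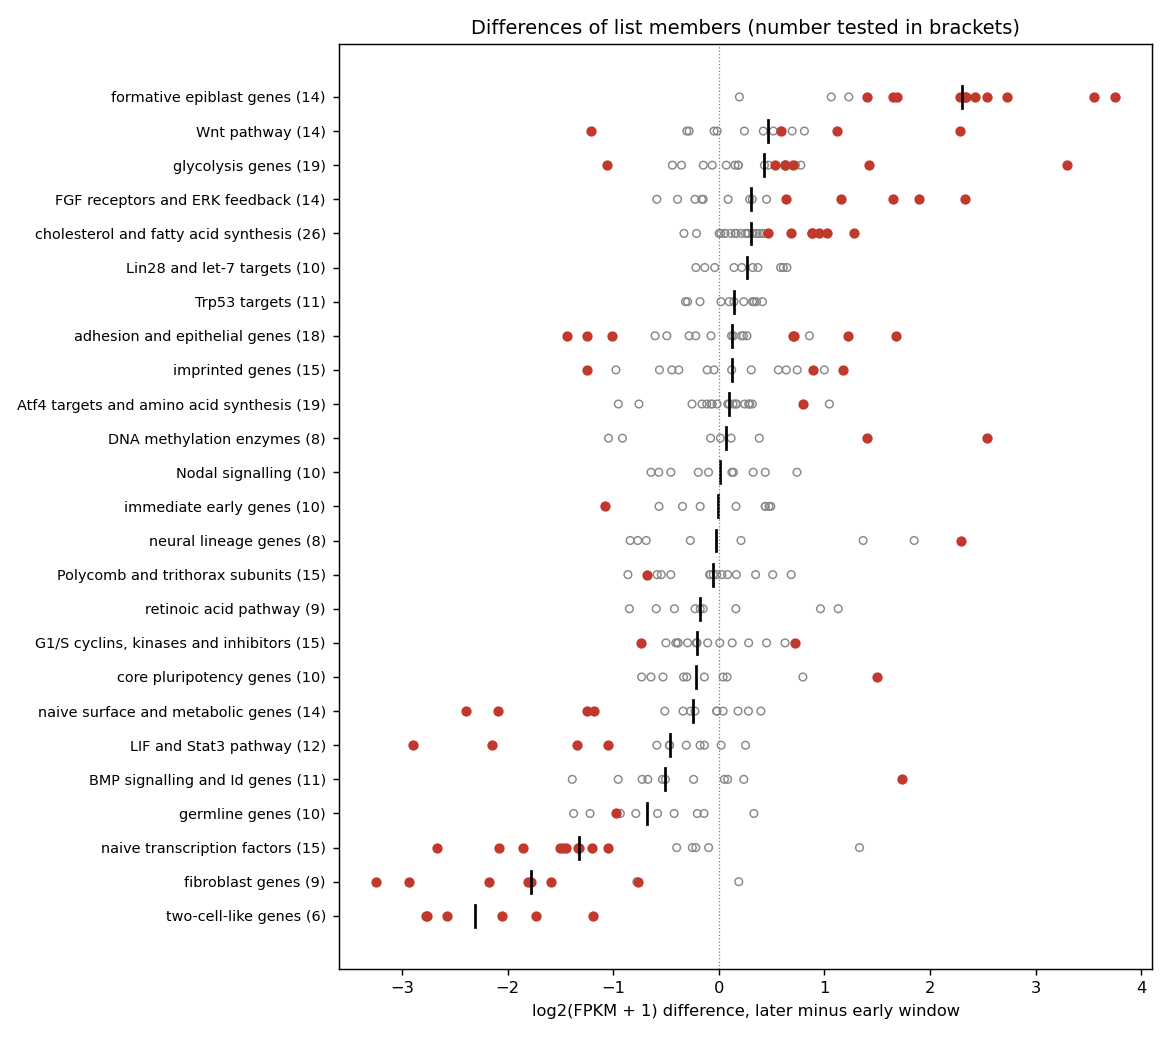
Difference between the windows in log2(FPKM + 1), later minus early (horizontal axis), of every tested member of each list, with the number tested in brackets. Filled red points passed limma at an adjusted p below 0.05, open grey points did not, and the black bar is the list median, ordered from -2.31 for 2-cell-like genes to 2.31 for formative epiblast genes.

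Of the FGF and ERK genes 5 of 14 rose and none fell, with a median of 0.30, where 2.77% of all genes rose and the median was -0.10. Beside Fgf5 and Fgf15, which the formative list also counts, these were the feedback genes Dusp4, Dusp6 and Spry1. Fgf5 passed the level limit through the later window alone, so it had to differ. With FPKM above 1 in all 6 samples 4 of 13 members rose, where 218 of 10191 genes rose. Dusp4, a phosphatase that inactivates ERK in the nucleus, had 7.04, 5.93 and 10.5 FPKM early and 19.9, 31.1 and 47.9 FPKM later (difference 1.89 ± 0.32, adjusted p = 0.0162). Dusp6, the cytoplasmic ERK phosphatase, had 13.2, 12.6 and 15.9 FPKM early and 24.99, 34.0 and 39.3 FPKM later (difference 1.16 ± 0.19, adjusted p = 0.0136). Spry2 had 33.3 to 45.4 FPKM early and 45.8 to 64.8 FPKM later, without overlap, and was not called (difference 0.45, adjusted p = 0.179). Spry4 had 24.9 to 32.2 FPKM early and 16.7 to 18.7 FPKM later (difference -0.59, adjusted p = 0.051), and Fgf4, the ligand that ES cells make, had a difference of -0.23. The count was 1 without 0 or 2.5 h and 0 with 20.5 h added to the later window.

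In the Wnt pathway 3 of 14 members rose and 1 fell, with a median of 0.47, against 2.77% and 4.75% of all genes and a median of -0.10. Lef1, a nuclear partner of beta-catenin, went from 1.97, 1.82 and 4.12 to 12.8, 15.0 and 21.2 FPKM (difference 2.28 ± 0.28, adjusted p = 0.00715). The receptor genes Fzd2 and Fzd5 differed in direction. Fzd2 went from 10.7, 9.45 and 9.14 to 15.7, 27.4 and 25.7 FPKM (difference 1.12 ± 0.22, adjusted p = 0.0241), and Fzd5 from 19.5, 16.3 and 13.1 to 8.30, 5.17 and 5.99 FPKM (difference -1.21 ± 0.21, adjusted p = 0.0175). Tcf7 rose by a small margin (difference 0.59, adjusted p = 0.0422), while the target gene Axin2 was not called. 6 rises were called after either rescaling, none without the 2.5 h sample, 1 without 0, 8.5 or 41.5 h and 5 without 53.5 h.

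Of the BMP genes Id2 alone passed, among 11 tested, which beside 7.52% of all genes is no result about the list. Id2, an inhibitor of basic helix-loop-helix factors, had 1.77, 1.08 and 1.42 FPKM early and 5.08, 7.93 and 8.41 FPKM later (difference 1.73 ± 0.22, adjusted p = 0.00715). The ligand Bmp4 and the targets Id1 and Id3 lay lower in every later sample than in any early one and missed the threshold. Bmp4 had 4.52, 7.03 and 12.5 FPKM early and 3.18, 2.25 and 1.46 FPKM later (difference -1.39, adjusted p = 0.054). Id1 and Id3 had differences of -0.73 and -0.95 (adjusted p = 0.086 and 0.101). With the GC trend removed 4 BMP genes fell, where 742 of all 11288 genes with a transcript fell. Without the 2.5 h sample no member was called. No member of the Nodal list (10 tested) or of the retinoic acid list (9 tested) was called in limma. Of them 2 and 5 had an unadjusted limma p below 0.05, beside 2729 of all 11610 genes. The retinoic acid list gave 1 rise and 2 falls without 53.5 h. It gave 1 rise without 35.5 h, after quantile normalization, in a slope on hours or with the GC trend removed. The largest difference in the Nodal list was 0.74 for Skil, a repressor of Smad signalling (adjusted p = 0.471). Nodal itself had 25.6 to 30.5 FPKM early and 15.7 to 31.4 FPKM later.

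Of 19 glycolysis genes 6 rose and 1 fell, with a median of 0.43, beside 2.77% of all genes that rose, 4.75% that fell and a median of -0.10. Slc16a3, a monocarboxylate transporter that exports lactate, had 8.26, 4.88 and 7.14 FPKM early and 71.4, 92.8 and 61.3 FPKM later. Its difference of 3.30 ± 0.22 (adjusted p = 0.00311) shared the lowest adjusted p of the named genes with that of Vrtn, a gene of vertebral patterning. Slc2a1, the glucose transporter Glut1, went from 201, 143 and 196 to 342, 587 and 547 FPKM (difference 1.42 ± 0.23, adjusted p = 0.0138). Pfkl, Eno1, Pkm2 and Pdk1 rose by smaller amounts, between 0.54 and 0.71. Hk1, a hexokinase, fell from 21.2, 19.8 and 21.1 to 12.3, 11.3 and 5.87 FPKM (adjusted p = 0.047), a call that was kept in 1 of the 6 fits that left out a sample and was lost after quantile normalization, median-of-ratios scaling, a pseudocount of 0.1 or no filter on low values. The rises numbered 1 without the 2.5 h sample, 2 without 0 or 35.5 h, 3 without 8.5 or 41.5 h, and 9 without 53.5 h.

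Of 26 cholesterol and fatty acid genes 7 rose and none fell, with a median of 0.30 (all genes 2.77% risen, median -0.10). Among those that rose were Srebf2, Lss, Acaca, Fasn, Scd1 and Scd2. Fatty acid genes made up 4 of the 7, with Acaca, which makes malonyl-CoA, at 16.8, 14.01 and 16.3 FPKM early and 36.4, 27.9 and 29.4 FPKM later (difference 0.94 ± 0.15, adjusted p = 0.0126). Fasn, the fatty acid synthase, had 105, 84.5 and 112 FPKM early and 204, 188 and 165 FPKM later (difference 0.88 ± 0.14, adjusted p = 0.0137). Of the mevalonate pathway, Mvk, Idi1, Fdps and Sqle were not called. No member was called without the 2.5 h sample, 2 rose without 0 h and 4 without 35.5 h.

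Within the adhesion list of 18 the junction genes Cldn6, Cldn7, Epcam and Ocln rose and Fn1, Vim and Snai1 fell, with a median of 0.13 that was -0.0024 without the 35.5 h sample. Of all genes 2.77% rose and 4.75% fell, with a median of -0.10. Cldn7 had 2.67, 1.54 and 2.00 FPKM early and 8.83, 9.53 and 7.87 FPKM later (difference 1.68 ± 0.19, adjusted p = 0.0054). Cldn6, a claudin of the early embryo, had 10.2, 10.2 and 13.3 FPKM early and 31.1, 29.7 and 21.9 FPKM later (difference 1.22 ± 0.18, adjusted p = 0.0102). Epcam and Ocln had differences of 0.71 each. Fn1, fibronectin, fell from 303, 273 and 218 to 135, 78.6 and 84.4 FPKM, and Vim, vimentin, from 309, 279 and 228 to 96.2, 134 and 111 FPKM (adjusted p = 0.0123 and 0.00832). Snai1, a repressor of E-cadherin, fell by 1.01. Fn1, Vim and Snai1 are also expressed by fibroblasts, whose genes fell between the same windows. At 20.5 h Fn1 and Vim had gone 92.3 and 101.5% of the way from the early to the later mean, and the 7 fallen fibroblast genes had a median of 73.1% and a range of 23.9 to 90.8%. The part of other cells in these falls was not tested. The E-cadherin gene Cdh1 had 85.8 to 110 FPKM early and 94.0 to 120 FPKM later and was not called. The other members were not called either, among them the cadherin Cdh2, which was higher in every later sample (difference 0.86, adjusted p = 0.12), and the keratin genes Krt8, Krt18 and Krt19. The rises numbered 1 and the falls 1 or 0 without the 0 or 2.5 h sample.

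Most fibroblast genes that were tested fell. Of the 10 list members 9 were tested, 7 fell and none rose, with a median of -1.78, where 4.75% of all genes fell and the median was -0.10. Acta2, smooth muscle actin, had 366, 297 and 165 FPKM early and 27.3, 39.1 and 17.5 FPKM later, and its difference of -3.25 ± 0.36 (adjusted p = 0.00528) was the largest fall of all called genes. Lox, lysyl oxidase, went from 78.9, 104 and 56.3 to 10.9, 6.41 and 11.3 FPKM (difference -2.93 ± 0.27, adjusted p = 0.00507). Col1a1 went from 152, 135 and 103 to 33.1, 34.2 and 18.4 FPKM. The summed fibroblast level was 765, 695 and 460.4 FPKM in the early window, 172 at 20.5 h and 136, 143 and 86.8 FPKM in the later window. Of the list's defining genes Lum was near 0.4 to 1.1 FPKM in the 6 samples and Twist2, 1 of the 7 that fell (-0.77, adjusted p = 0.042), was below 2 FPKM in all of them. Dcn lay the other way, with 1.15 to 2.45 FPKM early, 5.23 at 20.5 h and 1.32 to 3.59 FPKM later, and was not called. These ES cells are stated to have had 1 passage without feeders. The level of these genes moved with the windows, and the part of other cells in the falls was not tested. In bulk samples fewer cells of a type and less RNA per cell cannot be told apart. The matrix genes Fbln2 and Thbs1, also among the 10 largest falls, went down in the same samples, Fbln2 from 91.1, 97.3 and 70.6 to 15.5, 12.1 and 7.90 FPKM and Thbs1 from 171, 139 and 46.4 to 17.6, 10.5 and 15.4 FPKM. The 7 falls became 5 without 0 h and 2 without 2.5 h.

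All 6 tested genes of the 2-cell-like program, which a small share of ES cells switches on, fell (median -2.31), beside 4.75% of all genes and a median of -0.10. None of them was above 1 FPKM in all 6 samples, and Tcstv1 and Dub1 passed the level limit through the early window alone, where they are high, so those members had to differ. The falls numbered 3 without 2.5 h, 4 without 0 h, and 2 with 20.5 h added to the later window. Zscan4d, of the telomere-linked Zscan4 cluster, had 9.96, 11.5 and 8.68 FPKM early and 0.208, 0.385 and 1.51 FPKM later (difference -2.77 ± 0.28, adjusted p = 0.00507). Zscan4f and Zscan4c fell by 2.77 and 2.57. These genes are near-identical copies, so the share of reads each received is uncertain, and their falls are not independent of each other. Tcstv3 went from 10.1, 11.7 and 9.80 to 0.882, 1.47 and 3.60 FPKM (adjusted p = 0.0118). In Tcstv3 and the 3 Zscan4 genes the 53.5 h sample was above the 35.5 and 41.5 h samples. Among 10 germline genes Tex19.1, a gene of germ cells and placenta that limits transposons, fell from 109, 130 and 87.6 to 52.0, 65.0 and 47.1 FPKM as the single call, a share near the 7.52% of all genes and no result about the list. The falls numbered 0 without the 0, 2.5 or 35.5 h sample and 5 without 53.5 h, where 1140 of all 11610 genes fell.

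Sox1 was the single gene called in the neural, mesoderm and endoderm lists, which do not hold Sox3 and Fgf15. None of the 10 mesoderm and endoderm genes in the file passed the level limit, and their sum lay between 2.11 and 3.35 FPKM in every sample of both windows. Of 15 neural genes in the file 8 were tested and Sox1, the earliest SoxB1 marker of neural commitment, rose from 1.57, 0.569 and 1.48 to 5.37, 13.1 and 12.2 FPKM (difference 2.30 ± 0.35, adjusted p = 0.0109). Sox11 and Fabp7 were highest at 53.5 h, at 13.6 and 15.8 FPKM, and were not called (adjusted p = 0.078 and 0.175). Pax6 had 10.8 to 15.9 FPKM early and 5.35 to 8.29 FPKM later and was not called (adjusted p = 0.074). Hes5, Neurog2 and Six3 stayed below 2 FPKM in all 6 samples. The call of 1 of 8, beside 7.52% of all genes, is no result about the list. None was called without the 2.5 h sample or with 20.5 h added to the later window. Without 53.5 h 3 rose and 2 fell, where 493 of all 11610 genes rose and 1140 fell. In a slope on hours 3 rose and 1 fell, where 429 of all genes rose and 756 fell.

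In the remaining 7 lists together 8 of 95 members were called (8.42%), near the 7.52% of all tested genes, and their calls are given as values. The 8 calls became 0 without the 2.5 h sample, 1 without 0 h, 3 without 8.5 h, 5 without 35.5 h and 17 without 53.5 h. In that last fit 1633 of all 11610 genes were called. Of 15 imprinted genes Snrpn rose from 55.4, 58.3 and 72.7 to 127, 143 and 152 FPKM (adjusted p = 0.00645), Mest rose by 0.89 and Igf2 fell by 1.24. Of 15 genes of the G1/S step Ccnd1 rose from 48.7, 48.2 and 53.4 to 81.9, 92.1 and 76.1 FPKM (adjusted p = 0.0136), and Ccnd2 fell from 28.1, 24.7 and 29.4 to 16.9, 16.7 and 14.5 FPKM (adjusted p = 0.0181). The pair of D-type cyclins thus moved in opposite directions. Eed, a core subunit of Polycomb repressive complex 2, fell by 0.68 as the single call of 15 Polycomb and trithorax genes. Junb fell among 10 immediate early genes and Slc7a11, a cystine transporter, rose among 19 Atf4 targets (adjusted p = 0.0423 and 0.0491), each at the edge of the threshold. Slc7a11 lost its call with the GC trend removed (limma adjusted p = 0.072), with a pseudocount of 0.1 and with no filter on low values. None of 11 Trp53 targets and none of 10 genes of the Lin28 list was called in limma. An unadjusted limma p below 0.05 was found for 1 and 4 of them, beside 2729 of all 11610 genes. Over each list the largest differences were 0.41 for Zmat3, which passed with the GC trend removed (adjusted p = 0.0352), and 0.64 for Lin28b. Lin28b also passed with the GC trend removed (0.90, adjusted p = 0.0215).

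Among the 10 largest rises that no list held, Btbd17 went from 0.574, 0.663 and 1.47 to 11.4, 23.8 and 35.1 FPKM (difference 3.58 ± 0.39, adjusted p = 0.00525). Car4, a membrane-bound carbonic anhydrase, went from 1.21, 0.681 and 1.49 to 11.2, 19.2 and 23.8 FPKM (difference 3.12 ± 0.29, adjusted p = 0.00507). Vrtn went from 0.884, 0.798 and 1.52 to 12.5, 17.4 and 16.8 FPKM (difference 3.01 ± 0.21, adjusted p = 0.00311). All of these later values exceeded the highest early value by more than 7 times. Sema6a, a transmembrane semaphorin, and Pcdh1, a protocadherin, rose by 2.71 and 2.51. Of the falls, Mras, a Ras-family GTPase, went from 14.7, 10.9 and 11.5 to 1.60, 1.3995 and 0.349 FPKM (difference -2.71 ± 0.27, adjusted p = 0.00507). C1qtnf3, also among the 10 largest falls, went from 10.3, 9.57 and 4.47 to 0.622, 0.269 and 0.349 FPKM, and since it passed the level limit through the early window alone it had to differ.

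The 20.5 h sample took no part in the calls and lies between the windows. Its position was expressed for each called gene as a percentage of the way from the early to the later mean on the log2 scale. The median was 32.4% for genes that rose and 48.1% for genes that fell, and with the GC trend removed 33.2% and 56.2%. The genes that were not called had medians of 56.7% where they lay higher and -18.4% where they lay lower, and all tested genes together 19.6%. 83 of 322 rises and 267 of 551 falls were past the midpoint. The gene groups differed. The 10 fallen genes of the naive list were at a median of 16.6% with a range of -36.0 to 42.7%, and none was past the midpoint. Zfp42 had 420.1 FPKM at 20.5 h, above all 3 early samples, and Nanog had 142 FPKM, between its 2.5 and 8.5 h values. The 11 risen formative genes were at a median of 41.2%, with Otx2 at 45.0 FPKM (67.0% of the way), Pou3f1 at 6.89 and Dnmt3b at 96.3 FPKM. The 7 fallen fibroblast genes were at 73.1%, with Acta2 at 32.9 FPKM. With the GC trend removed these medians were 19.97% for naive, 40.1% for formative and 73.3% for fibroblast genes. The order rests on 1 sample, and no test was made of it.

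**Figure D4:**
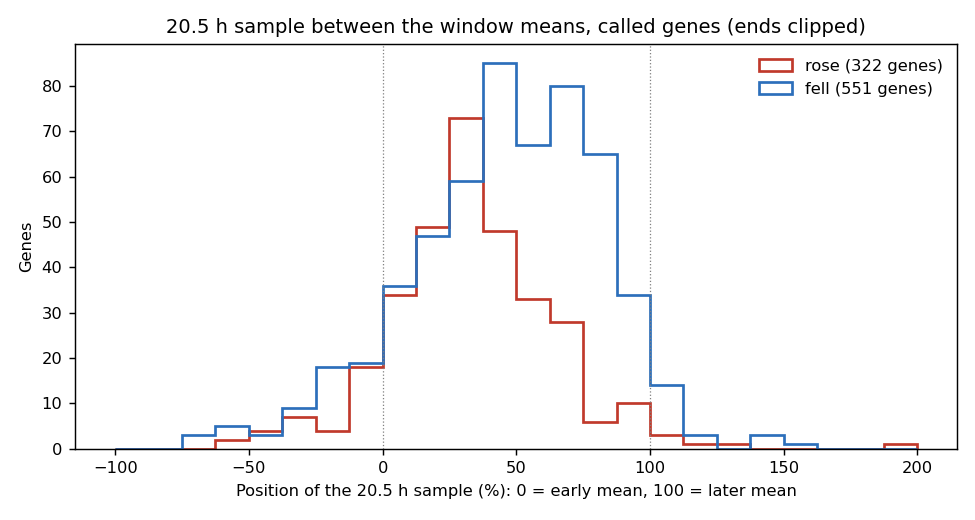
Number of called genes (vertical axis) by the position of the 20.5 h sample between the early mean (0%) and the later mean (100%) on the log2 scale (horizontal axis, ends clipped at -100 and 200). The red line holds the 322 genes that rose, with a median of 32.4%, and the blue line the 551 that fell, with a median of 48.1%.

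The adherent samples from 68.5 to 216 h lie outside the windows. At 68.5 h 294 of the 322 rises and 516 of the 551 falls were still past the midpoint on the later side, and at 216 h 213 and 382. The share at 216 h was 68.2% of the called genes, beside 53.2% of the genes not called. As a sum the naive list went down further. The summed level of the 15 genes of the naive list was 265 FPKM at 68.5 h and between 118 and 178 FPKM from 80.5 h on. Nanog was between 24.5 and 43.7 FPKM from 68.5 h on, to both sides of its 53.5 h value of 37.6 FPKM. Klf2, not called between the windows, went from 41.8 FPKM at 68.5 h to 10.5 FPKM at 216 h. Pou5f1 went from 370.2 FPKM at 68.5 h to 62.4 FPKM at 144 h. The formative genes parted. Otx2 and Dnmt3a were back on the early side of their midpoint in 7 and 8 of the 8 samples, with Dnmt3a at 61.4 FPKM at 68.5 h and 27.8 FPKM at 216 h. Sox3 and Sall2 stayed past the midpoint in all 8, with Sox3 at 38.6 FPKM at 68.5 h and 74.6 FPKM at 140.5 h. The 144 h sample stood apart from its neighbours, with a fibroblast sum of 247 FPKM against 87.7 at 140.5 h and 57.2 at 216 h. Acta2 alone held 203 FPKM of that sum at 144 h, against 22.1 and 13.1 FPKM in the neighbours. Lox, Col1a1 and Thy1 were instead lower at 144 h than in both neighbours. Dnmt3b was at 33.8 FPKM at 144 h, against 172 FPKM at 140.5 h and 73.1 FPKM at 216 h. Vim was at 438, 709 and 691 FPKM at 140.5, 144 and 216 h. The protocol replates the cells on day 6, and no test was made of the 144 h sample.

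SFEB, in which ES cells aggregate in suspension in GKSR medium without serum, offers the nearest windows in a table of its own, with 0, 1, 2 and 8 h against 34, 42.5 and 54.5 h. The SFEB values were batch corrected and normalized separately, so the comparisons are set side by side and not tested against each other. In SFEB 30.6% of 12297 genes were called (12% rose and 18.6% fell). Of the 847 adherent calls tested there, 760 (89.7%) had the same direction, beside 59.0% of all 11476 genes tested in both. 175 of 311 adherent rises and 406 of 536 adherent falls were called in SFEB in the same direction, which is 56.3% and 75.7%. The background for genes of that direction was 20.5% and 23.1%. 18 genes were called in opposite directions.

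The following genes are set side by side. Pou3f1 differed by 3.76 in adherent and 3.29 in SFEB cells, Dnmt3b by 2.54 and 3.63, and Pim2 by 3.55 and 3.54. Acta2 differed by -3.25 and -4.01, and Lox by -2.93 and -5.69. Genes that were not called in adherent cells could be called in SFEB, as Klf2 (-0.25 and -1.74, SFEB adjusted p = 0.00107) and Tead2 (0.19 and 0.97, SFEB adjusted p = 0.00061). Other genes were called in adherent cells alone, such as Slc2a1 (1.42 and -0.26, SFEB adjusted p = 0.29), Dusp4 (1.89 and 0.59, SFEB adjusted p = 0.18) and Id2 (1.73 and 0.34, SFEB adjusted p = 0.42). Slc16a3 in SFEB had 60.6, 59.3, 39.3 and 9.70 FPKM early and 49.4, 119.7 and 87.2 FPKM later, so its early samples were spread over both ends of the adherent range (adjusted p = 0.11). Pfkl was called in both with opposite signs, 0.63 in adherent and -0.67 in SFEB cells. These differences between the protocols were not tested.

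**Figure D5:**
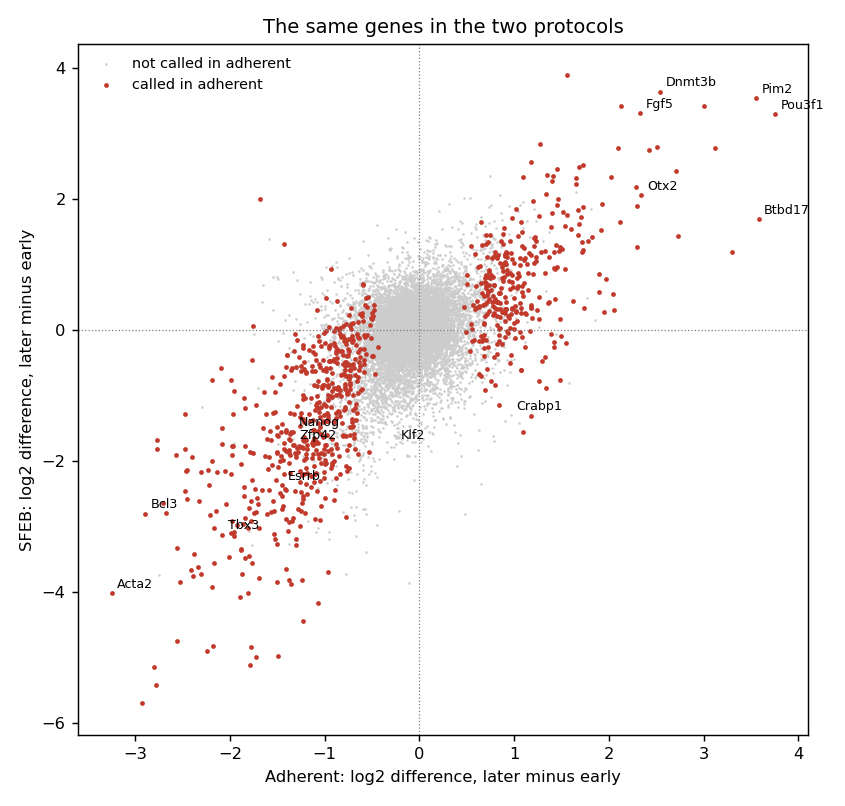
Difference between the windows in log2(FPKM + 1) in adherent cells (horizontal axis) and in SFEB aggregates (vertical axis), 1 point per gene tested in both tables. Red points are the genes called in adherent cells, of which 760 of 847 lie in the quadrants of equal sign, and grey points the other genes.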

How the data were processed

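RNA-seq FPKM values of 15 adherent samples and of the first SFEB series were used, as deposited by the authors. Libraries were made with the Nextera XT kit and sequenced as 100 bp reads. The submitters' processing notes name TopHat2 2.0.8b, Cufflinks 2.1.1 and mm9, whereas the study's methods give other versions of both tools. The authors' adherent FPKM table lists only genes above 1 FPKM in at least 1 sample and carries no batch correction that is stated. The SFEB FPKM values were deposited after ComBat correction, and the few negative values among them were replaced by 0. Read counts and depth were not used here, and FPKM was not treated as a count.

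Genes above 1 FPKM in at least 3 of the 6 samples were compared in limma 3.58.1 (R 4.3.3) on log2(FPKM + 1) with a trended empirical Bayes variance, no covariate and two-sided Benjamini-Hochberg adjusted p-values below 0.05 over all tested genes. Differences are on the log2(FPKM + 1) scale, later minus early, with SE. Python 3.11.15 with pandas 2.3.3, numpy 2.4.6 and matplotlib 3.10.9 was used otherwise. GC content and length came from GENCODE M1, and the trend of each library was removed by lowess. Promoters were matched by symbol. The limma procedure was tested on simulated data.

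Genes named are all members of 4 lists (naive, core, formative, DNA methylation), up to 4 called or otherwise up to 2 uncalled members of each other list by size of difference, and the 10 largest rises and 10 largest falls. Further members were named after their values were seen. The members, lists and motifs were chosen with earlier results of these data known. Alternatives covered the pseudocount, the filter, scaling, variance, windows and each sample left out. Single-cell, E14 and later SFEB samples were not used here. A few members of the lists enter the counts and are not reported here by name.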

Additional observations from a re-analysis of the deposited data

Results flagged for a closer look

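A sample far from the others of its group was found in the SFEB early samples (0, 1, 2 and 8 h) for 7 of the 105 named genes examined. The gap of the outlying sample to its nearest neighbour, as a share of the range, was 0.885 for Zfp281, 0.924 for Dnmt3a, 0.861 for Dnmt1, 0.936 for Tet3, 0.831 for Zscan4d, 0.846 for Cldn7 and 0.876 for Fasn (Dixon's ratio for 4 samples, each above the 95% critical value). The outlying sample was 8 h for Zfp281, Dnmt3a, Zscan4d and Cldn7, and 2 h for Dnmt1, Tet3 and Fasn. Chance flags about 1 in 20 groups of replicates, here 5.25 of 105 if the genes were independent, against the 7 found. The 4 samples are time points and not replicates, so this rate need not hold for them. The windows of the adherent culture hold 3 samples each and were not examined in this way.

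Crabp1, a retinoic acid binding protein, moved in opposite directions in the 2 protocols. Each of its later adherent samples (66.0, 133 and 65.1 FPKM) was above each early one (35.4 to 46.9 FPKM), a difference of 0.96, whereas in SFEB the difference was -1.30. The difference between the protocols was not tested, and Crabp1 did not pass the threshold in adherent cells (limma adjusted p = 0.0814), although it did with the GC trend removed (1.01, adjusted p = 0.018).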

How the results depend on the processing

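No paired analysis was possible because the labels give the adherent samples no replicate numbers. Every one of the 873 called genes that could be tested kept its direction under every alternative. Their windows did not overlap, so leaving out 1 sample could not turn a direction, and those fits do not test it. The genes called ranged from 69 to 1633 when each sample was left out, the rises from 24 to 493 and the falls from 45 to 1140, and in SFEB the genes called ranged from 2241 to 4418. With FPKM above 1 in all 6 samples, which tests fewer genes, 565 were called and 347 fell. Quantile normalization gave 544 rises and 333 falls, 20.5 h in the later window gave 261 calls (56 rises, 205 falls), and removal of the GC trend, chosen after seeing the data, gave 1511 calls with 769 rises. The cause of these changes was not tested. The median 20.5 h position of 41.3% became 43.1% with median-of-ratios scaling and 44.0% with the GC trend removed. Of the 74 named genes called, 21 to 73 stayed called when a sample was left out.

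Among the genes named by the stated rule, the differences that turned sign, none of them of a called gene, ranged with a sample left out from -0.51 to 0.064 for Klf2, -0.22 to 0.032 for Dppa3, -0.38 to 0.042 for Mybl2, -0.091 to 0.16 for Pou5f1, -1.12 to 0.014 for Zfp281 and -0.22 to 0.28 for Dnmt3l. Dppa3 was at 0.23 with 20.5 h in the later window and 0.012 with the GC trend removed, Pou5f1 at -0.015 after quantile normalization, Dnmt1 at 0.011 with median-of-ratios scaling, and Dnmt3l at -0.0030 log2 per hour as a slope. Of the 14 naive surface and metabolic genes 4 were higher later, and 6 with quantile normalization, median-of-ratios scaling or the GC trend removed. No read counts were at hand, so depth sets an unknown limit on low genes.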
